A study of Mus musculus with 6 samples.

Results

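The genes described here control how a cell senses, makes, takes up and exports sterols. They were taken by symbol from the deposited count table, and the choice was made with earlier results of these data known. Of the SREBP system they are Srebf2, Srebf1, Scap, Insig1 and Insig2, and of the LXR system Nr1h2, Abca1, Abcg1 and Mylip. All 9 were present among the 16022 gene symbols of the table, and all 9 passed the filter on low counts that left 12875 genes for testing. The libraries were made from LSK cells of mouse bone marrow, a sorted fraction without lineage markers that carries Sca-1 at high level together with c-kit and in which hematopoietic stem cells and early progenitors reside. There were 3 HDAC6 knockout libraries, from mice lacking the mainly cytoplasmic deacetylase HDAC6, and 3 wild-type (WT) libraries labelled as controls. Strain, age, sex, the deleted part of Hdac6 and any treatment of the mice are not stated in the labels. Nor do the labels state that each library is a different animal, and the p-values cover the spread between these samples alone. The comparison asks how the sterol control genes of LSK cells differ when HDAC6 is missing.

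SREBP-2 and SREBP-1 are transcription factors made as precursors in the membrane of the endoplasmic reticulum. When sterols are scarce, SCAP carries them to the Golgi, where they are cut free to switch on genes of sterol and fatty acid synthesis and of LDL uptake; when sterols are plentiful, INSIG proteins hold SCAP back. LXR proteins are nuclear receptors for oxysterols and act in the other direction, switching on the exporters ABCA1 and ABCG1 and the ubiquitin ligase MYLIP (IDOL), which lowers lipoprotein uptake. In mouse hematopoietic stem and progenitor cells, sterol efflux through ABCA1 and ABCG1 is known to restrain proliferation.

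Some of this wiring is written in the sequence of the genes, and the stretches that link the SREBP and LXR sides are shown here. RefSeq promoter windows (build GRCm38.p6), running from 250 bases before to 50 bases after a transcription start, were available for 8 of the 9 genes, in 13 windows. There was no window for Abcg1, so its promoter was not searched. Both strands were searched for TCACCCCA, the core of the sterol response element bound by SREBPs, and for GGTTACT followed after 3 bases of any kind by GGTCA, a form of the direct repeat bound by LXR with its partner RXR. These letters were written from known elements, so a match in their known target genes is not an independent finding. TCACCCCA was found in 1.56% of all 32851 windows and, among the 8 genes searched, in Srebf2 alone. The LXR element was found in 0.0183% of all windows, 6 in number, of which 2 belong to Abca1 and Srebf1. The shorter letters CCAAT (NF-Y box) and CACGTG (E-box) were also searched and are common, being in 37.4% and 7.15% of all windows and in windows of 5 and 3 of the 8 genes searched. The windows are printed from 5′ to 3′ along the strand of the gene, with the match in capitals. That of Srebf2 is chr15:82147019-82147318 (plus strand, match from position -162), that of Abca1 is chr4:53159846-53160145 (minus strand, match from -67), and the matching window of the 3 for Srebf1 is chr11:60210422-60210721 (minus strand, match from -182). In Abca1 and Srebf1 the match is on the opposite strand, where it reads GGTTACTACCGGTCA and GGTTACTGGCGGTCA.
Srebf2: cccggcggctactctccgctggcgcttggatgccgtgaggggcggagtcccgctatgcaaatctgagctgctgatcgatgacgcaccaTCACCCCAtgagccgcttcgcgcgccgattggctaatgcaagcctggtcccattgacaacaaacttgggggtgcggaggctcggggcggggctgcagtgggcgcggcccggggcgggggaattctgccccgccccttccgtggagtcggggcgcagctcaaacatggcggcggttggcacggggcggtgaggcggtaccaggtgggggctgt
Abca1: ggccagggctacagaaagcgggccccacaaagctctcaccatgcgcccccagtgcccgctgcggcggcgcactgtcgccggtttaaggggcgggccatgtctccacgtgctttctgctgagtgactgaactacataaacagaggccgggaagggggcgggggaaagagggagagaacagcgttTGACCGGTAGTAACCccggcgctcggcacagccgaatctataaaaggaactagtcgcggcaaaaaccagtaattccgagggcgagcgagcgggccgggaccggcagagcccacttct
Srebf1: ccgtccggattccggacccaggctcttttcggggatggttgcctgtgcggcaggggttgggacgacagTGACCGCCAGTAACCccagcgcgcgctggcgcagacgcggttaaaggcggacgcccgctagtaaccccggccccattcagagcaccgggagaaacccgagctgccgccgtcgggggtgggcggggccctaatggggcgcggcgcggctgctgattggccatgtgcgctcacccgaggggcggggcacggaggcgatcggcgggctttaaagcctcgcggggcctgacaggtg

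An intron of Srebf2 also holds the microRNA gene Mir33, whose product is known to repress Abca1 and, in mouse, Abcg1. The mature strand is shown because it ties the SREBP-2 locus to both exporters; it lies at chr15:82198127-82198147 (plus strand, GRCm38.p6), and capitals mark its seed, bases 2 to 8. The match to that seed, CAATGCA, was found in 7.12% of the 21002 longest 3′ untranslated regions of GENCODE M21 protein-coding genes. Among the 9 genes it was found 3 times in Abca1 and 2 times in Abcg1, in each case close together, and in no other. The clusters are printed as DNA with the matches in capitals; in Abca1 the first and second match share bases. They start at base 134 of the Abca1 and base 716 of the Abcg1 untranslated region, counted from the first transcript base after the annotated coding bases. The deposited table gives gene-level values only, so the level of the microRNA itself was not analysed here.
mmu-miR-33-5p: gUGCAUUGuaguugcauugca
Abca1 sites: tattCAATGCAATGCActtCAATGCAacg
Abcg1 sites: aacgCAATGCAacgCAATGCAgac

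Total counts ran from 25993971 to 28743672 per library. Hdac6 stood at 9.53 ± 1.80 CPM in knockout and 60.2 ± 7.03 CPM in WT libraries (SD, n = 3 each; CPM is the count scaled to library size, with TMM normalisation), and it was the only gene past an adjusted p of 0.05 by edgeR's quasi-likelihood test (adjusted p = 0.000594), which is 0.00777% of the genes tested. Without knockout replicate 3, 14 genes were called lower and 30 higher, and without knockout replicate 1 the counts were 3 and 1; none of the 9 sterol control genes was among them. The gate genes Kit (c-kit) and Ly6a (Sca-1), and the progenitor marker Cd34, were well detected, at 60.3 CPM or more in every library. Their groups did not overlap. Kit had 725, 817 and 1082 CPM in knockout libraries, against 1323, 1367 and 1127 CPM in WT libraries. Cd34 was also lower, at 1360.1 to 1646.5 CPM in knockout and 1729.3 to 1821.5 CPM in WT libraries. Ly6a was higher, at 82.1 to 119 CPM in knockout and 60.3 to 68.7 CPM in WT libraries. Of the LSK markers 7 were below and 3 above WT, 0 were called, and their part in the results below was not tested. The summed level of 10 LSK markers was 3475 to 4495 CPM in knockout and 4363 to 4917 CPM in WT libraries. Macrophages and monocytes express Abca1 and Abcg1 strongly. All 12 of their markers were detected and 0 were called. Their summed level was 304, 966 and 706 CPM in knockout libraries, against 382, 475 and 307 CPM in WT libraries. Knockout replicates 2 and 3 thus lay above every WT library, and the groups overlapped through knockout replicate 1 alone. The part of these cells in the results below was not tested. Neutrophil markers (10 of 10 detected, 8 below WT) summed to 18.5 to 37.3 CPM in knockout and 44.6 to 112 CPM in WT libraries, and their part in the results below was not tested. For the other 5 marker lists (T and NK cells, B cells, erythroid cells, megakaryocytes and platelets, endothelial and stromal cells) 0 genes were called, and the sums of knockout and WT libraries overlapped.

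Genes on both sides of sterol control were lower in knockout than in WT LSK cells, by modest amounts. The sterol exporter gene Abcg1 stood 1.39-fold lower, Insig1 1.36-fold, Abca1 1.33-fold, Mylip 1.29-fold, Srebf2 1.28-fold and Insig2 1.26-fold lower, while Nr1h2, Srebf1 and Scap had log2 fold changes between -0.16 and 0.013. In all, 8 of 9 genes had a negative log2 fold change, with a median of -0.35, beside 50.5% of all genes and a median of -0.0034 over all genes. In 6 of the 9, Srebf2, Insig1, Insig2, Abca1, Abcg1 and Nr1h2, every knockout library lay below every WT library, a pattern seen in 9.7% of all genes, and 0 lay wholly above WT, beside 8.86% of all genes; without the filter on low counts, which shifts the scaling, the 6 became 4, as the narrow gaps of Insig2 and Abca1 closed. Because the 9 genes were chosen with earlier results of these data known, such counts beside all genes are description and not a test. None of the 9 passed the edgeR test adjusted over all genes (adjusted p from 0.298 to 0.981). At an unadjusted p under 0.05 there were 4, Abcg1, Srebf2, Insig1 and Abca1, all lower, beside 6.15% of all genes lower and 7.24% higher at that p; the count was 2 without knockout replicate 1, without knockout replicate 2 or without WT replicate 2. DESeq2 called Abcg1 alone and limma-voom called 0 of the 9. In bulk RNA, fewer cells that express a gene and less of its RNA per cell cannot be told apart.

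**Figure D1:**
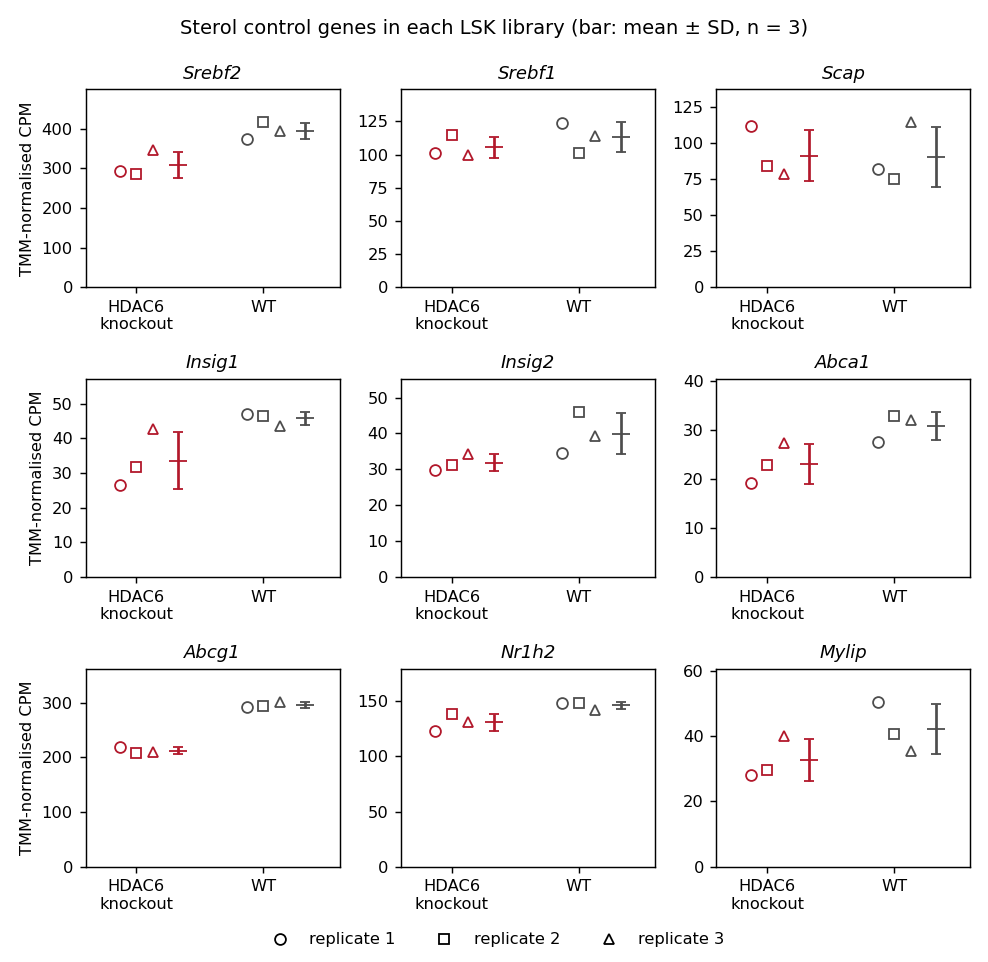
TMM-normalised CPM of the 9 sterol control genes in each library; symbols are replicates, bars are mean ± SD of 3 libraries, and each axis starts at 0. The knockout and WT libraries of Abcg1 form narrow groups, at 208 to 220 and 292 to 302 CPM, whereas those of Scap, Srebf1 and Mylip overlap.

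**Figure D2:**
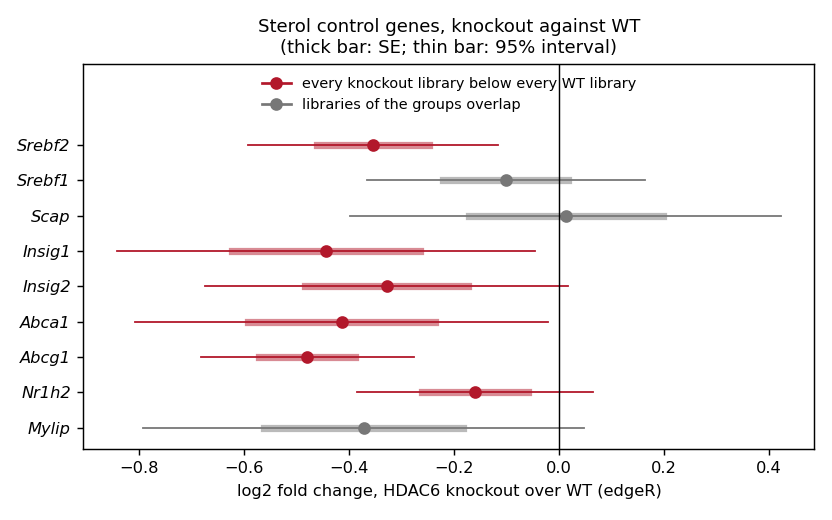
Log2 fold change of each gene, knockout over WT, from edgeR, with its SE (thick) and 95% interval (thin). The intervals of Srebf2, Insig1, Abca1 and Abcg1 lie below 0 before adjustment for the number of genes tested, and that of Scap spans -0.40 to 0.42.

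Srebf2, the master regulator of cholesterol synthesis and LDL uptake, had 294, 285 and 347 CPM in knockout replicates 1 to 3, against 375, 416 and 393 CPM in WT replicates 1 to 3. All knockout libraries lay below all WT libraries, with knockout replicate 3 nearest to them. Its log2 fold change was -0.35 (SE 0.11, 95% interval -0.59 to -0.12; unadjusted p = 0.00766, adjusted p = 0.298 by edgeR). Srebf1, whose product mainly drives fatty acid synthesis, had 101, 115 and 100 CPM in knockout libraries, against 124, 101 and 114 CPM in WT libraries. The groups overlapped, and the log2 fold change of -0.10 (SE 0.12) had a 95% interval of -0.37 to 0.16, which leaves room for a fall as large as that of Srebf2. Srebf1 shares 109 of its 5634 exonic bases with Rai1 on the opposite strand in GENCODE M21, and the strand setting of the counts is not given, so reads from that stretch cannot be told apart. The log2 ratio of Srebf2 to Srebf1 was 1.55 ± 0.24 in knockout and 1.81 ± 0.22 in WT libraries (SD, n = 3 each; exact two-sided permutation p = 0.3, where the smallest possible is 0.1), so a difference between both factors in their response was not detectable with these libraries.

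Insig1 encodes the retention protein that is itself a classic SREBP target. It had 26.5, 31.6 and 42.6 CPM in knockout replicates 1 to 3, against 47.1, 46.5 and 43.6 CPM in WT replicates 1 to 3. The WT libraries were tight while the knockout libraries were spread out, with coefficients of variation of 24.4% in knockout and 4.11% in WT, and knockout replicate 3 came within 1 CPM of the lowest WT library. The log2 fold change was -0.44 (SE 0.18, unadjusted p = 0.0322, adjusted p = 0.343 by edgeR). Insig2, its paralog that is not driven by SREBPs in the same way, had 29.7, 31.3 and 34.4 CPM in knockout libraries, against 34.5, 46.0 and 39.3 CPM in WT libraries. The groups were separated only by the narrow gap between knockout replicate 3 and WT replicate 1. Its log2 fold change was -0.33 (SE 0.16, adjusted p = 0.381 by edgeR), and -0.21 without WT replicate 2. The log2 ratio of Insig1 to Insig2 was 0.054 ± 0.24 in knockout and 0.20 ± 0.22 in WT libraries (SD, n = 3 each; exact permutation p = 0.4), so the paralogs were not shown to differ in their change.

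Scap, the escort protein and sterol sensor, showed no common direction. Its values were 112, 84.4 and 78.5 CPM in knockout libraries, against 82.4, 75.3 and 115 CPM in WT libraries, with 1 high library in each group. The log2 fold change was 0.013 (SE 0.18, 95% interval -0.40 to 0.42; adjusted p = 0.981 by edgeR), and its sign turned with the scaling, being -0.063 with library size alone. Scap shares 985 of its 7443 exonic bases with an unnamed transcript model on the opposite strand, so its level carries the same strand limit as that of Srebf1.

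On the LXR side, the receptor gene itself had the smallest difference. Nr1h2, which encodes LXR-beta, had 124, 139 and 131 CPM in knockout libraries, against 148, 149 and 142 CPM in WT libraries. Its groups were apart but close, with a log2 fold change of -0.16 (SE 0.10, 95% interval -0.38 to 0.066; adjusted p = 0.505 by edgeR). It was the only one of the 9 genes with counts that were not whole numbers, in 5 of 6 libraries, and the treatment of reads shared between features is not stated.

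Abcg1, which exports sterols to high-density lipoprotein, showed the clearest separation of the 9. It had 220, 208 and 209 CPM in knockout libraries, against 292, 295 and 302 CPM in WT libraries. The spread was small in both groups, with coefficients of variation of 3.07% in knockout and 1.85% in WT, and the gap between the groups was many times wider than either. Its log2 fold change was -0.48 (SE 0.091, 95% interval -0.68 to -0.28; unadjusted p = 0.000352, adjusted p = 0.298 by edgeR), and it ranked 12 by p among the 12875 genes. DESeq2 called it lower, with a log2 fold change of -0.47 and an adjusted p of 0.00239, while over the other alternatives and left-out libraries its adjusted p ran from 0.0558 to 0.744. A two-sided exact permutation test gave p = 0.1, which is the lower limit for groups of 3.

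Abca1, which loads sterols and phospholipids onto apolipoprotein A-I, was less abundant and more variable. It had 19.3, 22.8 and 27.4 CPM in knockout libraries, against 27.6, 32.9 and 32.0 CPM in WT libraries. The groups were apart by a gap of under 1 CPM, between knockout replicate 3 and WT replicate 1. The log2 fold change was -0.41 (SE 0.18, unadjusted p = 0.0414, adjusted p = 0.358 by edgeR). Both exporter genes, which carry the clustered miR-33 seed matches printed above, and Srebf2, which hosts Mir33, had every knockout library below every WT library. So did Insig1, Insig2 and Nr1h2, in which no seed match was found, and 9.7% of all genes. A part of the microRNA in these differences was not tested. The log2 ratio of Abca1 to Abcg1 was -3.21 ± 0.29 in knockout and -3.26 ± 0.12 in WT libraries (SD, n = 3 each; exact permutation p = 0.9). For the 3 ratios together, the Benjamini-Hochberg adjusted permutation p was 0.6 to 0.9.

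Mylip, the LXR-induced ligase that lowers lipoprotein uptake, had 28.1, 29.7 and 40.1 CPM in knockout libraries, against 50.6, 40.8 and 35.3 CPM in WT libraries. Knockout replicate 3 lay above WT replicate 3, so the groups overlapped. The log2 fold change was -0.37 (SE 0.19, 95% interval -0.79 to 0.049; adjusted p = 0.41 by edgeR), and -0.22 without WT replicate 1.

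Levels can be compared between genes only per length, for which the deposited FPKM (fragments scaled to gene length and library size) were used. In knockout libraries Nr1h2 (70.7 ± 4.81 FPKM) and Srebf2 (68.2 ± 9.46) were highest and overlapped, whereas in WT libraries Srebf2 (91.4 ± 5.31) lay above Nr1h2 (82.7 ± 2.91) without overlap. Abcg1 followed at 36.9 ± 1.15 FPKM in knockout and 54.2 ± 0.64 FPKM in WT libraries, apart from its neighbours in both groups. Srebf1 and Scap came next and overlapped each other, at 25.03 ± 1.71 and 22.6 ± 3.85 FPKM in knockout and 28.3 ± 2.74 and 23.6 ± 5.20 FPKM in WT libraries. Insig1, Insig2 and Mylip formed an overlapping run, between 11.1 and 13.5 FPKM on average in knockout and between 15.1 and 19.3 FPKM in WT libraries, where the highest Insig1 library also met the lowest of Scap. Abca1 was lowest, at 2.25 ± 0.47 FPKM in knockout and 3.15 ± 0.29 FPKM in WT libraries, below all the others in every library. Per length, LSK cells thus held far more RNA of Srebf2 than of Srebf1, and far more of Abcg1 than of Abca1.

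**Figure D3:**
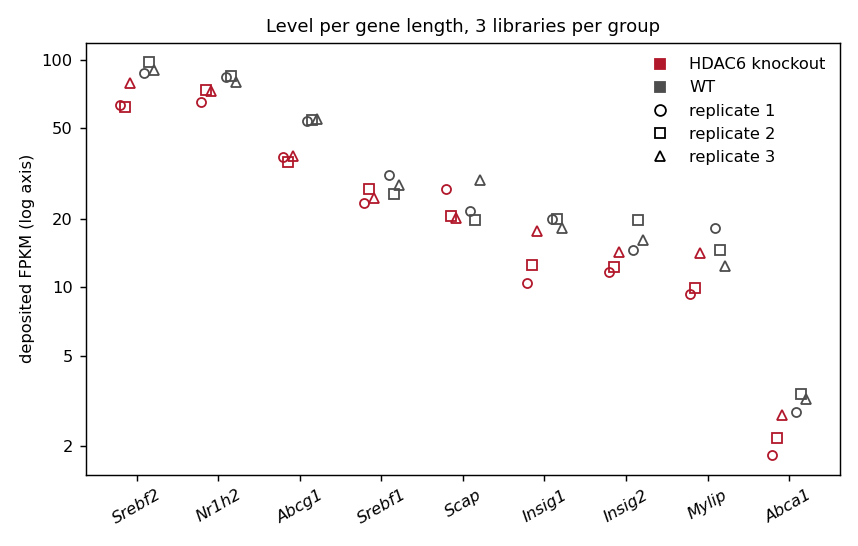
Deposited FPKM of the 9 genes in each library on a log axis, ordered by the WT mean, with symbols for replicates. Srebf2 and Nr1h2 lie between 62.0 and 97.3 FPKM and Abca1 between 1.83 and 3.39 FPKM.

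The knockout libraries did not behave alike, and over all genes the closest pair of libraries joined knockout replicate 3 with WT replicate 3 (chi-square over degrees of freedom of 24.9, against 33.8 or more within groups). Knockout replicate 3 had the highest of the 3 knockout values for 5 of the 9 genes, Srebf2, Insig1, Insig2, Abca1 and Mylip, and knockout replicate 1 the lowest for 5, Insig1, Insig2, Abca1, Nr1h2 and Mylip. Without knockout replicate 3 the log2 fold changes were -0.45 for Srebf2, -0.65 for Insig1, -0.55 for Abca1 and -0.55 for Mylip, and without knockout replicate 1 they were -0.32, -0.30, -0.30 and -0.27. Abcg1 did not follow this order, and its log2 fold change stayed between -0.50 and -0.46 whichever library was left out. The cholesterol synthesis enzymes ran the other way in the knockout libraries: their mean, as log2 CPM centred on each gene's mean over the 6 libraries, was -0.082, -0.13 and -0.35 in knockout replicates 1, 2 and 3, against 0.24, 0.30 and 0.028 in WT replicates 1, 2 and 3. The knockout library with the most Srebf2 RNA thus had the lowest mean of these enzymes. Among the WT libraries, replicate 2 had both the most Srebf2 RNA and the highest mean of these enzymes.

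**Figure D4:**
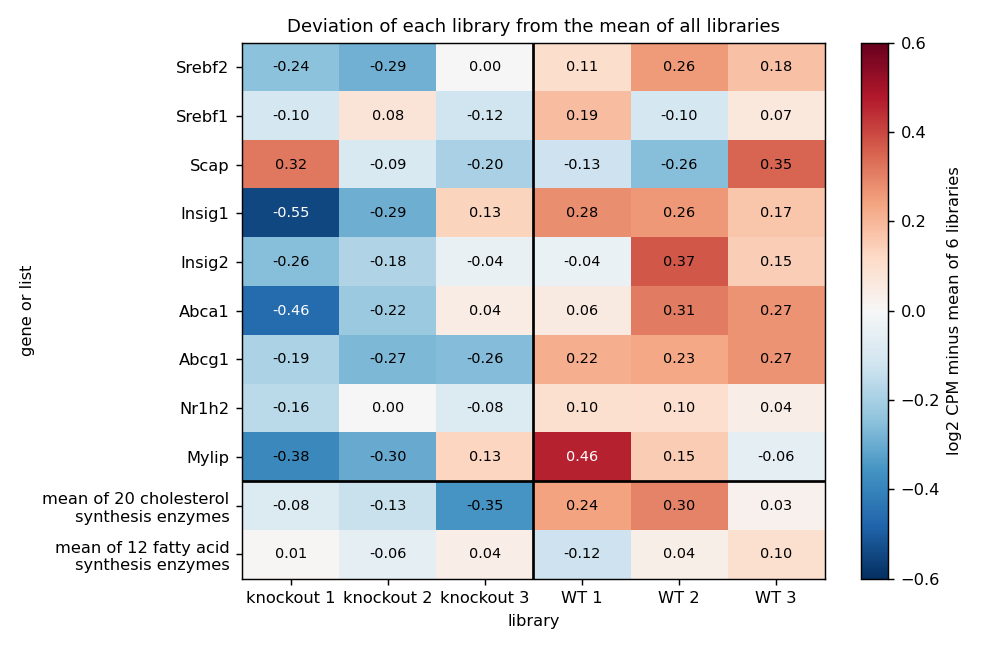
Log2 CPM of each library minus the mean of all 6 libraries, for the 9 genes and, below the line, for the mean of 20 cholesterol and 12 fatty acid synthesis enzymes. Abcg1 is negative in all knockout and positive in all WT libraries, whereas Insig1, Abca1 and Mylip are above 0 in knockout replicate 3, the library in which the cholesterol enzymes are lowest at -0.35.

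The wider pathway was described from lists that include none of the 9 genes. Of 20 cholesterol synthesis enzymes, all tested, 18 were below WT, 12 with every knockout library below every WT library and 0 in the opposite way, and the median log2 fold change was -0.44, or -0.27 without WT replicate 2. By edgeR 0 passed, 7 had an unadjusted p under 0.05, all lower, and DESeq2 called Msmo1 and Sqle. Msmo1, a sterol demethylation enzyme, had 27.1, 30.4 and 25.3 CPM in knockout libraries, against 61.6, 59.9 and 45.4 CPM in WT libraries. Sqle (squalene epoxidase) and Fdft1 (squalene synthase) had log2 fold changes of -0.61 (SE 0.12) and -0.71 (SE 0.19). The direction of this list was known when it was chosen, so it is context for the SREBP genes and not separate support. Fatty acid synthesis enzymes did not share the direction: 12 of 13 were tested, 6 were below and 6 above WT, the median was 0.0040 (-0.10 to 0.084 over the alternatives and left-out libraries), and 0 had an unadjusted p under 0.05 by edgeR or a call by DESeq2. Acss2 (-0.42), Elovl6 (-0.27) and Gpam (0.33) had the smallest p, and their groups overlapped.

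RNA of the genes whose products cut, retain or degrade SREBPs was near WT, with 8 of 12 tested genes below and a median of -0.029. That median lay between -0.11 and 0.040 over the alternatives and left-out libraries. Erlin1, of the complex that degrades the sterol-sensing reductase and restrains SREBPs, was the 1 gene of this list whose groups did not overlap. It stood at 97.4 ± 5.25 CPM in knockout and 79.4 ± 12.4 CPM in WT libraries (SD, n = 3 each, adjusted p = 0.377 by edgeR). The gap was narrow, with knockout replicate 3 at 92.2 CPM and WT replicate 3 at 91.2 CPM, and 8.86% of all genes lay wholly above WT. Ube2g2 (0.20) and Rnf139 (0.21) had the next smallest p. By edgeR and DESeq2 0 of the 12 were called, and 0 had an unadjusted p under 0.05. Among 9 partners and cofactors of LXR, 8 were tested and 6 were below WT, with a median of -0.21 and 3 genes lower at an unadjusted p under 0.05. That median was -0.12 without WT replicate 3, -0.32 without knockout replicate 2 and -0.31 without knockout replicate 3. Rxra, which encodes a partner receptor of LXR, had 6.24, 5.40 and 8.05 CPM in knockout libraries, against 8.80, 8.95 and 12.3 CPM in WT libraries. The more abundant partner gene Rxrb was not lower, with 67.9 ± 4.39 CPM in knockout and 60.2 ± 13.4 CPM in WT libraries (SD, n = 3 each). Its groups overlapped. The corepressor gene Ncor1 had a log2 fold change of -0.34 (SE 0.13). Neither edgeR nor DESeq2 called any of these 8.

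Other LXR targets ranged widely in level. Of 12, 8 were tested, 5 of them below WT, with a median of -0.31, no gene with separate groups and 0 calls by edgeR or DESeq2. That median was -0.18 without WT replicate 3 and -0.20 on log2(FPKM + 1). With the stricter filter it was -0.12, but over fewer genes, since genes of low level such as Nr1h3 and Lpl then drop out. Apoe, which encodes an apolipoprotein, averaged 273 ± 81.6 CPM in knockout and 267 ± 31.6 CPM in WT libraries, and Lpcat3, a phospholipid remodelling enzyme gene, 126 ± 12.3 CPM in knockout and 119.9 ± 5.52 CPM in WT libraries (SD, n = 3 each). Smpdl3a, a phosphodiesterase gene, had an unadjusted p of 0.0435 by edgeR, with 72.2 ± 8.33 CPM in knockout and 92.3 ± 15.9 CPM in WT libraries (SD, n = 3 each). Nr1h3, which encodes LXR-alpha, stood at 1.47 ± 0.52 CPM in knockout and 2.64 ± 0.96 CPM in WT libraries, far below Nr1h2 in counts, and Lpl at 2.51 ± 1.19 CPM in knockout and 3.72 ± 0.74 CPM in WT libraries. In the list of lipoprotein uptake and intracellular sterol transport, 14 of 21 tested genes were below WT, with a median of -0.19. The sterol transfer gene Gramd1b (-0.69, SE 0.22) and the lipoprotein receptor gene Lrp8 (-0.45, SE 0.19) had separate groups, with every knockout library below every WT library. By edgeR 0 of the 21 passed, 3 were lower and 1, the sterol esterifying enzyme gene Soat1, was higher at an unadjusted p under 0.05. In oxysterol metabolism 5 of 7 tested genes were below WT, with a median of -0.030 (-0.26 to 0.033 over the alternatives and left-out libraries) and 0 calls by edgeR or DESeq2; Cyp7b1, an oxysterol hydroxylase gene, had a log2 fold change of -1.05 (SE 0.46) at 2.76 ± 1.56 CPM in knockout and 5.71 ± 0.19 CPM in WT libraries, and Gpr183, an oxysterol receptor gene, 1.497 (SE 0.67), with 16.3 CPM in knockout replicate 2 alone against 0.97 to 4.39 CPM in the other libraries. Cyp39a1 followed at -0.39.

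**Figure D5:**
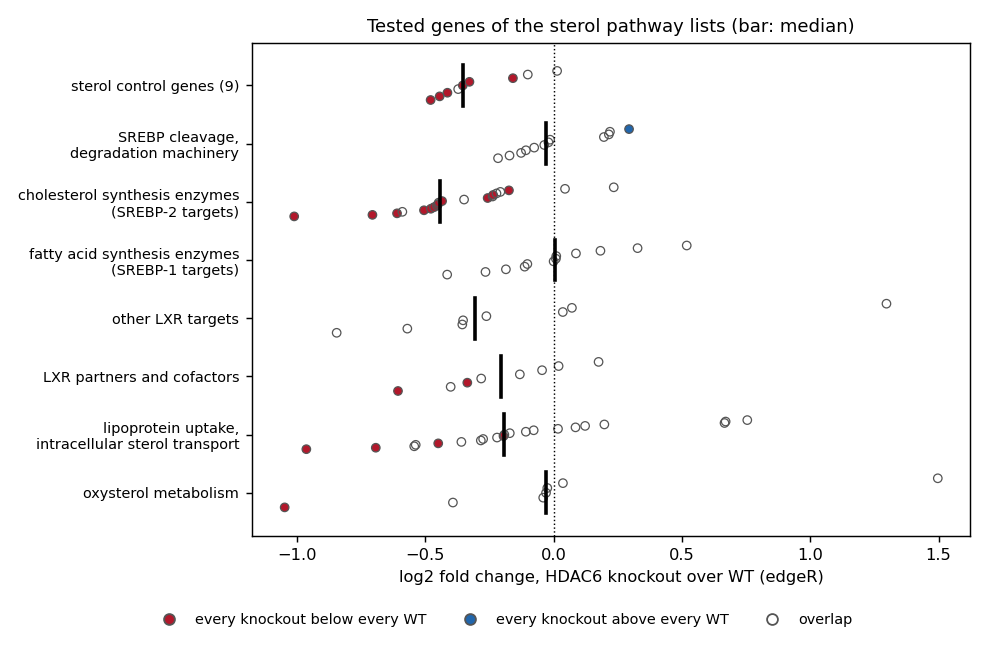
Log2 fold change, knockout over WT, of the 9 sterol control genes and of each tested gene of the pathway lists; filled points mark genes whose groups do not overlap, and bars are medians. The sterol control genes and the cholesterol enzymes have medians of -0.35 and -0.44, and the fatty acid enzymes 0.0040.

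To place the genes among all others, profiles were compared by the root mean square difference of log2 CPM over the 6 libraries, each profile centred on its own mean. Nearest to Srebf2 were Csnk1g3 (0.029 log2 units), Gpd2 (0.042) and Snapc3 (0.043), and nearest to Insig1 were Akap8l (0.033), Appl2 (0.047) and Ppm1a (0.051). Abca1 was nearest to H2bc21 (0.040), Kmt2a (0.042) and Mapk8ip3 (0.055), and Abcg1 to Zfp14 (0.049), Rfx7 (0.051) and Tmed8 (0.052). For each of the 4 genes, many genes outside the 9 were nearer than any of the 9. The rank of the nearest of the 9 among the 12875 genes tested is description only. It is the best of several ranks, and the 9 were chosen with earlier results of these data known. To Srebf2 the nearest of the 9 was Insig2, at rank 117 (0.090), and to Insig1 it was Abca1, at rank 112 (0.12). To Abca1 and Abcg1 it was Srebf2, at ranks 85 (0.11) and 105 (0.12).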

How the data were processed

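The authors deposited 1 table that gives, per the file headers, FPKM and read counts for each gene symbol in each library. Per the submitters' processing notes, the build was GRCm39 and the tools included featureCounts 2.0.3, HISAT2 2.2.1, DESeq2 and SAMtools 1.13; they do not state the step each served, the gene annotation, whether counting was stranded or how shared reads were treated. The deposited counts are estimated counts: 19.6% to 20.9% of values in a library had a fractional part (tolerance 0.005), and all were rounded. The deposited FPKM values by the authors served for levels between genes and 2 alternatives. All genes were fitted with edgeR 4.0.16 under R 4.3.3, knockout against WT, using its quasi-likelihood test (filterByExpr with a minimum count of 10, TMM, robust dispersion, Benjamini-Hochberg adjusted p of 0.05). SE is the log2 fold change over the root of F, and 95% intervals use the test's degrees of freedom. Alternatives were RLE, upper-quartile and library-size scaling, no and stricter filters (5 CPM in 3 libraries), DESeq2 1.42.0, limma 3.58.1 with voom and sample weights or on log2(FPKM + 1) and log2(FPKM + 0.1), non-robust dispersion, the replicate block and each library left out; edgeR's newer option and the counts of sterol control genes per setting were added after seeing the data.

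The 9 genes, the pathway and marker lists and the tests were chosen with earlier results of these data known. Named are the 9, Hdac6, the 3 genes of each pathway list with the smallest p and the 3 nearest profiles of 4 genes. Other names (Kit, Ly6a, Cd34, Soat1, Apoe, Lpcat3, Rxrb) were chosen after their values were seen. Some items that this rule names are not reported here. Chi-square over degrees of freedom between library pairs was 33.8 to 55.8 within and 24.9 to 87.3 between groups, so each library counted as 1 sample. In 3 simulations of this comparison on 12875 genes with 200 changed, edgeR recovered 11.9%, 55.7% and 85.4% of 1.5-fold, 2-fold and 4-fold changes. On average 6.75% of the calls were false. The simulated libraries were drawn independently, so likeness between libraries was not part of the simulation. A count of 0 allows up to 3 counts, 0.106 to 0.114 CPM, for counting error only. Promoters and the microRNA come from RefSeq tables (GRCm38.p6) and untranslated regions and exon overlaps from GENCODE M21 (GRCm38); this build differs from that of the counts, and its coordinates locate printed sequences only.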

Additional observations from a re-analysis of the deposited data

How the results depend on the processing

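Of the 9 sterol control genes, 8 kept their direction under all 12 alternative settings and with each library left out; Scap did not, with a log2 fold change of -0.040 with upper-quartile scaling, -0.063 with library size alone, -0.055 on log2(FPKM + 1), -0.057 on log2(FPKM + 0.1) and -0.15 to 0.22 with 1 library left out, never near the threshold; the cause was not tested. Abcg1 passed with DESeq2 (-0.47, adjusted p = 0.00239) and under no other setting. Genes called lower and higher over all genes numbered 1 and 0 by edgeR but 61 and 120 by DESeq2, and with 1 library left out 1 to 14 and 0 to 30, the most without knockout replicate 3. Sterol control genes lower at an unadjusted p under 0.05 numbered 4 to 6 under the settings with all libraries and 2 to 5 with 1 left out; those with every knockout library below every WT library numbered 6, but 4 with no filter on low counts, where the close gaps of Insig2 and Abca1 were lost.

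Replicate numbers are shared between the groups, but same-numbered libraries did not deviate together (correlations of 0.034, -0.040 and -0.12, and 1 of 3 knockout libraries correlated best with its own number). The samples were therefore treated as unpaired, although 3 libraries per group cannot show that same-numbered libraries share no origin. With the replicate block 0 sterol control genes were called, the log2 fold changes of Abcg1 and Srebf2 were -0.48 and -0.36 (adjusted p = 0.456 for both), and the number of genes called stayed at 1. The lowest count of any of the 9 genes in a library was 525.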
